A study of Mus musculus with 16 samples.

Results

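A set of 10 genes that mark the thick ascending limb, the distal convoluted and connecting tubule, and the collecting duct were followed in whole kidney RNA of 16 mice, out of 22911 gene symbols named on the array. The genes were taken as every array probe whose transcript identifier belongs to Umod, Slc12a1, Kcnj1, Slc12a3, Pvalb, Calb1, Aqp2, Aqp3, Scnn1a or Scnn1b, which gave 12 of 56605 probes, with 2 probes each for Calb1 and Scnn1a. The 4 genotypes, each with 4 mice of 6 months, were wild-type C57BL/6 mice, Fcgr2b-/- mice of mixed 129/C57BL/6 background that develop lupus, double-deficient Fcgr2b-/-.Sting gt/gt mice of the same mixed background, and Sting gt/gt mice on C57BL/6. Fcgr2b encodes an inhibitory Fc receptor, and the Sting gt allele is a point mutation that leaves no functional STING, the adaptor of cytosolic DNA sensing. Fcgr2b deficiency and the mixed background came together, so they cannot be told apart. The labels call the lupus group Fcgr2b-ko alone, whereas a legend of the study on kidney arrays names Fcgr2b-/-.Sting wt/gt mice, so it is not settled whether these mice carried a Sting gt allele, and every comparison of this group, the interaction included, holds that limit.

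The distal nephron sets the final salt and water content of urine. Thick limb cells take up sodium, potassium and chloride through the cotransporter NKCC2 and secrete uromodulin. The distal convoluted tubule takes up sodium chloride through the cotransporter NCC, the connecting tubule handles calcium, and principal cells of the collecting duct take up sodium through the epithelial sodium channel and water through aquaporins under the control of aldosterone and vasopressin.

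Promoter windows of 4 of the genes are shown because these genes stand for the 3 segments and include both genes that varied most between mice. Each window is the 250 bases before the RefSeq start of the gene in build GRCm38.p6, written 5′ to 3′ on the strand of the gene. The start is that of the RefSeq promoter entry, and for Slc12a3 the RefSeq gene record begins earlier, at base 94329109, so that the last 99 bases of its window lie inside that record. The windows lie at chr7:119479263-119479512 on the minus strand for Umod, chr8:94328958-94329207 on the plus strand for Slc12a3, chr15:78206401-78206650 on the minus strand for Pvalb and chr15:99578806-99579055 on the plus strand for Aqp2. Capitals mark matches on either strand to 7 motifs, which do not overlap one another in these windows. They are AAGGTCA for estrogen-related receptors, AGATAA for GATA factors, GTTAAT for one side of an HNF1 site, TGACG for one side of a cAMP response element, AGAACA for one side of a steroid hormone receptor site, ACCGGT for Grainyhead-like factors and TATAAA for the TATA box.
Umod: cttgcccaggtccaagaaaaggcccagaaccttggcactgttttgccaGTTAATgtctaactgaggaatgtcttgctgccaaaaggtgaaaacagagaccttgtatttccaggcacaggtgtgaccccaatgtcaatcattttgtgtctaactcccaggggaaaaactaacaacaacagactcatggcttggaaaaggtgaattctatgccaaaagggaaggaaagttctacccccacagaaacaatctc
Slc12a3: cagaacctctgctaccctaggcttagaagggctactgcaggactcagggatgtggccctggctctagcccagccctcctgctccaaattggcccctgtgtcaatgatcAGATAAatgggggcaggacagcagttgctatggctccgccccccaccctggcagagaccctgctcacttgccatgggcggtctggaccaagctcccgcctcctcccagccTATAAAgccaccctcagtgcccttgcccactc
Pvalb: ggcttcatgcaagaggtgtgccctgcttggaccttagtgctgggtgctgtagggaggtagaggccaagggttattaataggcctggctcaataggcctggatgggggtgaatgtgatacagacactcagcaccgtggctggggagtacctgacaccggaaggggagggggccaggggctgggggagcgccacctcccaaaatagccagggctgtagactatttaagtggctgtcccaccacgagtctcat
Aqp2: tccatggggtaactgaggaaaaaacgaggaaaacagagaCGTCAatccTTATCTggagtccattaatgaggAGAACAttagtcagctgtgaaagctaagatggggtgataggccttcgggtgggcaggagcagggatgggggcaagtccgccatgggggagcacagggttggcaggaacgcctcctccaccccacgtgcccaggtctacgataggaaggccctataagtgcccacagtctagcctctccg
The Umod window held 1 match, a GTTAAT found in 6.43% of the 32851 windows of all genes. The Slc12a3 window held AGATAA, found in 9.99% of all windows, and TATAAA, found in 12.4%. The Aqp2 window held AGATAA and, found in 17.8% of all windows, TGACG, both on the opposite strand, and on its own strand AGAACA, found in 16.1%. No match lay in the Pvalb window. Pvalb has a second promoter entry, with its window at chr15:78204238-78204487, wholly inside the gene record. That window is not shown and held no match either. Among 8 members with a window (all but Calb1 and Scnn1a), none held AAGGTCA, found in 4.08% of all windows, or ACCGGT, found in 1.86%.

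Levels are given as the log2 brightness of a probe minus the log2 75th percentile of its array, so that 1 unit is a 2-fold difference and 0 is a brightness equal to that percentile. All probes but that of Scnn1b, 11 of 12, were well above background on all 16 arrays, and the Scnn1b probe was so on 13 arrays, with only 1 of 4 in Sting gt/gt mice. Fcgr2b itself ranged from 0.60 to 1.63 in wild-type mice, from -0.53 to 0.21 in Fcgr2b-/- mice, from -0.93 to 0.00 in double-deficient mice and from -0.66 to 0.996 in Sting gt/gt mice, so that the lowest Sting gt/gt mouse lay within the range of the Fcgr2b-deficient mice. Sting1 ranged from -1.92 to 0.53 in wild-type mice and from -0.63 to 0.47 in Sting gt/gt mice, and a point mutation need not change the transcript. The lowest median correlation with the other arrays was 0.914 for Fcgr2b-/- replicate 1 followed by 0.923 for Sting gt/gt replicate 4, against 0.940 to 0.973 for the others, and the changes of Pvalb, Calb1, Slc12a3 and Scnn1a are given with and without Fcgr2b-/- replicate 1. Slide 1 held 2 wild-type, 3 Fcgr2b-/-, 1 double-deficient and 2 Sting gt/gt arrays, and slide 2 held 2, 1, 3 and 2, so that each slide had a genotype with a single mouse.

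None of the 10 genes passed the test in any of 6 comparisons, with a call set at a 2-fold or larger difference and an adjusted p under 0.05 in limma over all 35629 tested probes. Fcgr2b-/- against wild-type called 0.0449% of all probes, and Fcgr2b-deficient against Fcgr2b-sufficient mice (8 against 8) called 0.0674%. Double-deficient against Fcgr2b-/- mice, double-deficient against wild-type mice, Sting gt/gt against wild-type mice and the interaction of the 2 deficiencies called 0% each. At an unadjusted p under 0.05, the count was 2 of 10 genes for Fcgr2b-/- against wild-type (Pvalb and Calb1), beside 3.3% of all probes, and 2 of 10 for the pooled Fcgr2b comparison (Kcnj1 and Calb1), beside 1.63%. It was 0 of 10 for double-deficient against Fcgr2b-/- (1.75% of all probes), for double-deficient against wild-type (0.418%), for Sting gt/gt against wild-type (3.73%) and for the interaction (6.23%). No gene separated its groups without overlap by its brightest probe. Of all probes, 1.19% did so between Fcgr2b-/- and wild-type, 1.02% between double-deficient and Fcgr2b-/-, 0.547% between double-deficient and wild-type, 1.99% between Sting gt/gt and wild-type, and 0.0674% in the pooled Fcgr2b comparison.

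**Figure D1:**
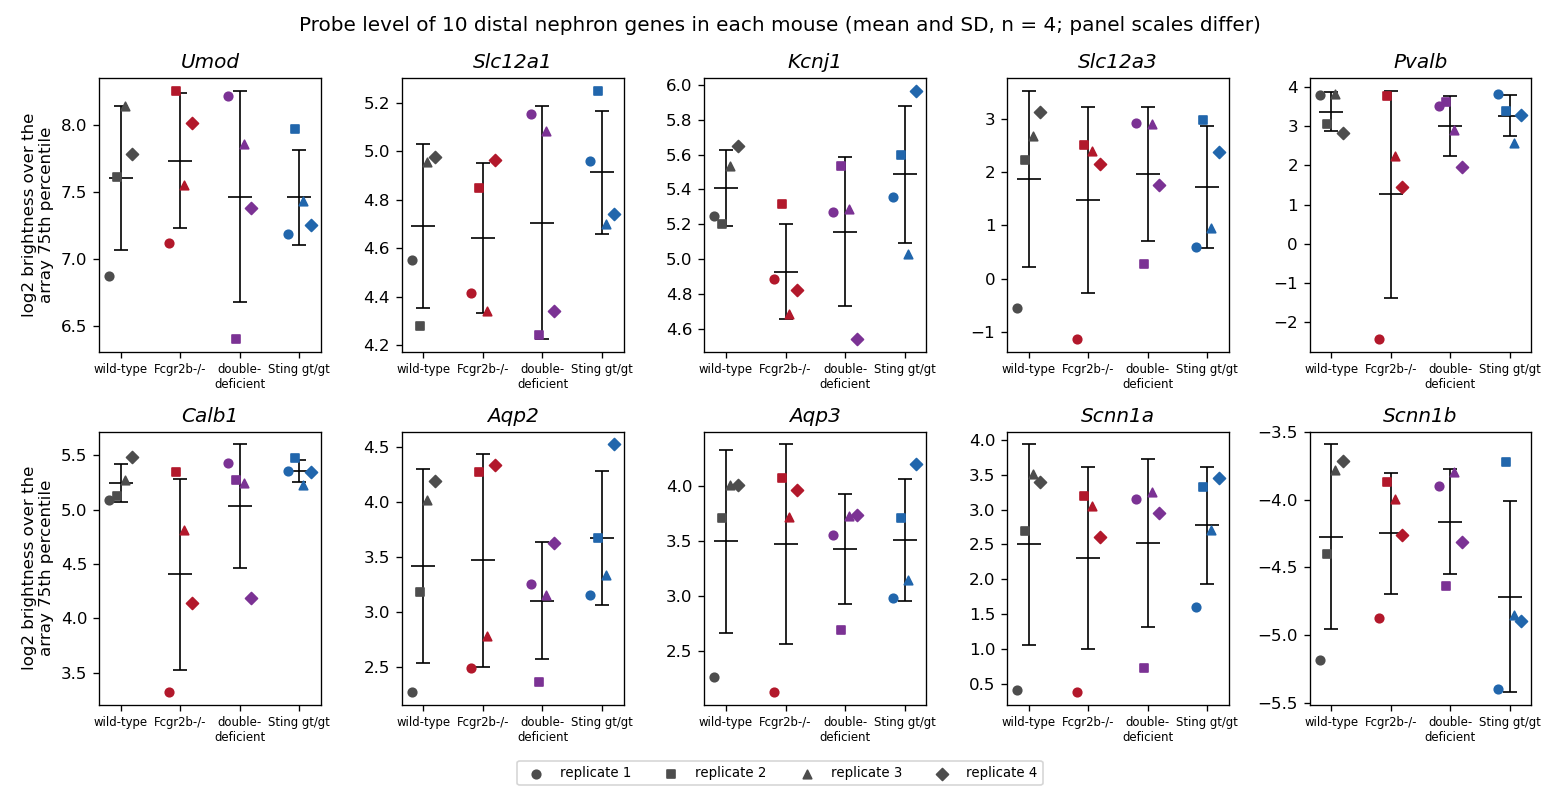
Level of each gene in each mouse, as log2 brightness over the array 75th percentile (y axis, scale set per panel), by genotype (x axis). Marker shape gives the replicate number, and bars give the mean and SD of 4 mice. Pvalb of Fcgr2b-/- replicate 1 lies at -2.43, and Slc12a3 spans -1.14 to 3.12 over the 16 mice.

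Among the thick limb genes, Umod, the gene of uromodulin, had mean levels of 7.61 ± 0.54 (SD, n = 4) in wild-type, 7.74 ± 0.50 in Fcgr2b-/-, 7.47 ± 0.79 in double-deficient and 7.46 ± 0.35 in Sting gt/gt mice. Its 16 values ran from 6.40 in double-deficient replicate 2 to 8.26 in Fcgr2b-/- replicate 2. The ranges of all 4 genotypes overlapped, and no neighbours in the order of the means differed beyond their spread.

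Slc12a1, which encodes the cotransporter NKCC2, was among the steadier genes, from 4.24 to 5.25 over all mice, with a within-genotype SD of 0.35 against a median of 0.55 over all tested probes. Its genotype means were 4.69 in wild-type, 4.64 in Fcgr2b-/-, 4.71 in double-deficient and 4.91 in Sting gt/gt mice. Its log2 change was -0.05 ± 0.27 (SE) for Fcgr2b-/- against wild-type and 0.06 ± 0.27 for double-deficient against Fcgr2b-/-.

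Kcnj1 encodes ROMK, the potassium channel that recycles potassium for NKCC2 and secretes it in the collecting duct. Its levels in replicates 1 to 4 were 5.24, 5.20, 5.53 and 5.65 in wild-type mice and 4.88, 5.32, 4.68 and 4.83 in Fcgr2b-/- mice. They were 5.27, 5.53, 5.29 and 4.54 in double-deficient mice and 5.36, 5.60, 5.03 and 5.97 in Sting gt/gt mice. Of the 4 Fcgr2b-/- mice, 3 lay below every wild-type mouse, and Fcgr2b-/- replicate 2 lay among them. The log2 change was -0.48 ± 0.27 for Fcgr2b-/- against wild-type (limma unadjusted p = 0.092) and -0.41 ± 0.19 for the pooled Fcgr2b comparison (unadjusted p = 0.048, adjusted p = 1.0).

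Pvalb encodes parvalbumin, a calcium-binding protein of the early distal convoluted tubule. Its levels in replicates 1 to 4 were 3.79, 3.05, 3.80 and 2.83 in wild-type mice and -2.43, 3.76, 2.25 and 1.45 in Fcgr2b-/- mice. They were 3.52, 3.62, 2.89 and 1.95 in double-deficient mice and 3.82, 3.39, 2.57 and 3.29 in Sting gt/gt mice. Of the 4 Fcgr2b-/- mice, 3 lay below every wild-type mouse, while replicate 2 lay at the wild-type level, and the SD was 2.64 in Fcgr2b-/- against 0.51 in wild-type mice. The log2 change for Fcgr2b-/- against wild-type was -2.11 ± 0.91, a 4.31-fold lower level (unadjusted p = 0.035, adjusted p = 1.0), and it was -0.88 ± 0.53 without Fcgr2b-/- replicate 1. Double-deficient mice differed from Fcgr2b-/- mice by 1.74 ± 0.91 (unadjusted p = 0.075), or by 0.51 when that mouse was left out. The change for Fcgr2b-/- against wild-type was -2.13 when the slide was a block and -2.49 within slide 1 (3 mice against 2). Within slide 2 it was -1.07, from Fcgr2b-/- replicate 3 alone against 2 wild-type mice. The labels give no sex, Y-linked genes were above background on 6 of 16 arrays, and with their signal as a covariate the change was -2.05.

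Calb1 encodes calbindin-D28k, the calcium buffer of the late distal convoluted and connecting tubule. Its brighter probe read 5.09, 5.13, 5.27 and 5.48 in wild-type mice and 3.32, 5.35, 4.81 and 4.14 in Fcgr2b-/- mice. It read 5.43, 5.27, 5.25 and 4.19 in double-deficient mice and 5.36, 5.47, 5.23 and 5.34 in Sting gt/gt mice. The same 3 Fcgr2b-/- mice as for Pvalb lay below all wild-type mice, and double-deficient replicate 4 stood more than 1 unit below its group. The log2 change for Fcgr2b-/- against wild-type was -0.84 ± 0.37 (unadjusted p = 0.039, adjusted p = 1.0), and -0.48 ± 0.32 without Fcgr2b-/- replicate 1. The second probe gave -0.78 ± 0.33 (unadjusted p = 0.030), and 0.77 ± 0.33 for double-deficient against Fcgr2b-/- (unadjusted p = 0.033, adjusted p = 1.0), where the brighter probe gave 0.63 ± 0.37. Without Fcgr2b-/- replicate 1, the second probe gave -0.52 ± 0.31 and 0.50 ± 0.31 for these comparisons, and the brighter probe gave 0.27 ± 0.32 for double-deficient against Fcgr2b-/-. The second probe was also the only one whose groups did not overlap in a comparison, being higher by 0.43 ± 0.33 in Sting gt/gt than in wild-type mice (adjusted p = 0.74), beside 1.99% of all probes. Pvalb and Calb1 passed the test for Fcgr2b-/- against wild-type in 1 alternative, limma with array weights, with log2 changes of -1.96 and -1.04. This setting was added after the data had been seen, and 2084 probes were called under it. The weights were 0.33, 0.45, 0.70 and 4.79 in Fcgr2b-/- replicates 1 to 4 and 0.27, 0.92, 4.41 and 1.92 in wild-type mice. The weighted Fcgr2b-/- mean therefore rests largely on replicate 4.

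Slc12a3 encodes NCC, the thiazide-sensitive cotransporter. Its levels in replicates 1 to 4 were -0.55, 2.23, 2.69 and 3.12 in wild-type mice and -1.14, 2.50, 2.40 and 2.15 in Fcgr2b-/- mice. They were 2.92, 0.28, 2.91 and 1.75 in double-deficient mice and 0.59, 2.98, 0.95 and 2.37 in Sting gt/gt mice. Wild-type replicate 1, Fcgr2b-/- replicate 1 and double-deficient replicate 2 lay more than 1 unit below the rest of their groups, Sting gt/gt replicates 1 and 3 lay more than 1 unit below the other two, and the within-genotype SD of 1.47 was larger than that of 97.7% of all tested probes. The change for Fcgr2b-/- against wild-type was -0.39 ± 0.94, and it became 0.48 without Fcgr2b-/- replicate 1.

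**Figure D2:**
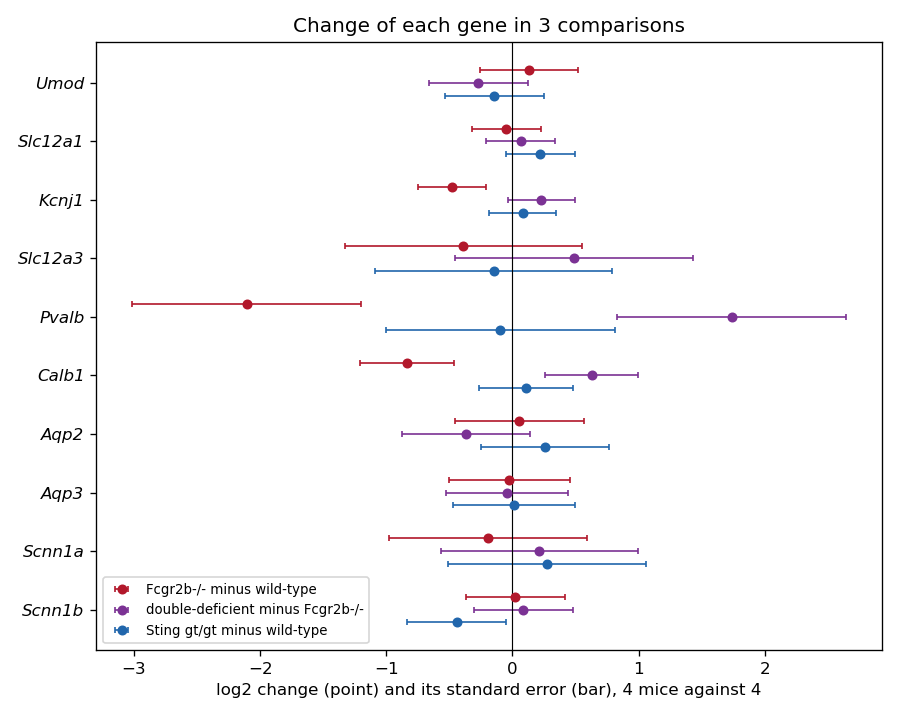
Log2 change of each gene (x axis, points) with its standard error (bars) in 3 comparisons of 4 mice with 4. The Pvalb change of -2.11 for Fcgr2b-/- against wild-type is the farthest from 0, and its bar is wide at 0.91.

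Among the principal cell genes, Aqp2, the vasopressin-regulated water channel, had means of 3.41 ± 0.88 (SD, n = 4) in wild-type, 3.47 ± 0.97 in Fcgr2b-/-, 3.10 ± 0.53 in double-deficient and 3.67 ± 0.61 in Sting gt/gt mice. Aqp3, the water channel of the basolateral membrane, had means of 3.49, 3.47, 3.42 and 3.51 in the same order. All genotype ranges of both genes overlapped, and the lowest values were those of wild-type replicate 1 for Aqp2, at 2.27, and of Fcgr2b-/- replicate 1 for Aqp3, at 2.12.

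Scnn1a encodes the alpha subunit of the epithelial sodium channel. Its brighter probe read 0.40, 2.70, 3.51 and 3.39 in wild-type mice and 0.37, 3.19, 3.05 and 2.61 in Fcgr2b-/- mice. It read 3.15, 0.73, 3.25 and 2.94 in double-deficient mice and 1.60, 3.33, 2.71 and 3.45 in Sting gt/gt mice. The lowest mouse of each genotype was the lowest for Slc12a3 as well. The log2 change was -0.19 ± 0.78 for Fcgr2b-/- against wild-type, and 0.45 ± 0.75 without Fcgr2b-/- replicate 1. For Sting gt/gt against wild-type the probes of Scnn1a differed in sign, 0.27 ± 0.78 for the brighter and -0.53 ± 0.42 for the other. Scnn1b, the beta subunit of the channel, was dim, from -5.39 to -3.72, and its change for Sting gt/gt against wild-type was -0.44 ± 0.39, with 3 of the 4 Sting gt/gt values not well above background.

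Many of the members, but not all, varied together from mouse to mouse. After the genotype mean was taken off, all 45 pairs correlated positively over 16 mice, with a median Pearson's r of 0.49, and 18 pairs passed a permutation test within genotypes after adjustment over the 45 pairs. By Spearman's rho 11 pairs passed, and 10 passed by both measures. No pair with Kcnj1 passed by either measure (r from 0.12 to 0.55), and Pvalb passed only with Calb1, by r alone. The points of every pair share the array and its scaling, and with arrays scaled to their median 29 pairs passed in place of 18. Over all pairs of 35616 tested probes, 50.5% of pairs had an r above 0, the median r was 0.01, and 18.5% had an r of 0.49 or more. The share of all probe pairs that would pass the permutation test was not computed, so the counts of passing member pairs have no background. Member pairs listed under the same segment had a median r of 0.76, and 7 of 12 passed by r. Those listed under different segments had a median r of 0.44, and 11 of 33 passed. This difference was not tested. The closest pair was Slc12a3 and Scnn1a, listed under different segments, with r = 0.96 (permutation p = 3e-05, adjusted p = 0.00075) and rho = 0.83 (permutation p = 0.00032), and r = 0.92 without wild-type replicate 1 and Fcgr2b-/- replicate 1. Aqp2 and Aqp3 had r = 0.88 (permutation p = 4e-05) and rho = 0.90, with r = 0.82 without the same mice. Umod followed Slc12a3 with r = 0.83 (permutation p = 0.00064), rho = 0.81 and r = 0.84 without double-deficient replicates 1 and 2. Pvalb and Calb1 had r = 0.87 (permutation p = 0.00523, adjusted p = 0.0168), while rho was 0.67 (adjusted p = 0.064), and r fell to 0.64 without Fcgr2b-/- replicates 1 and 2. Pvalb and Aqp2 had r = 0.27 and rho = -0.02, and the r was -0.43 without those mice.

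**Figure D3:**
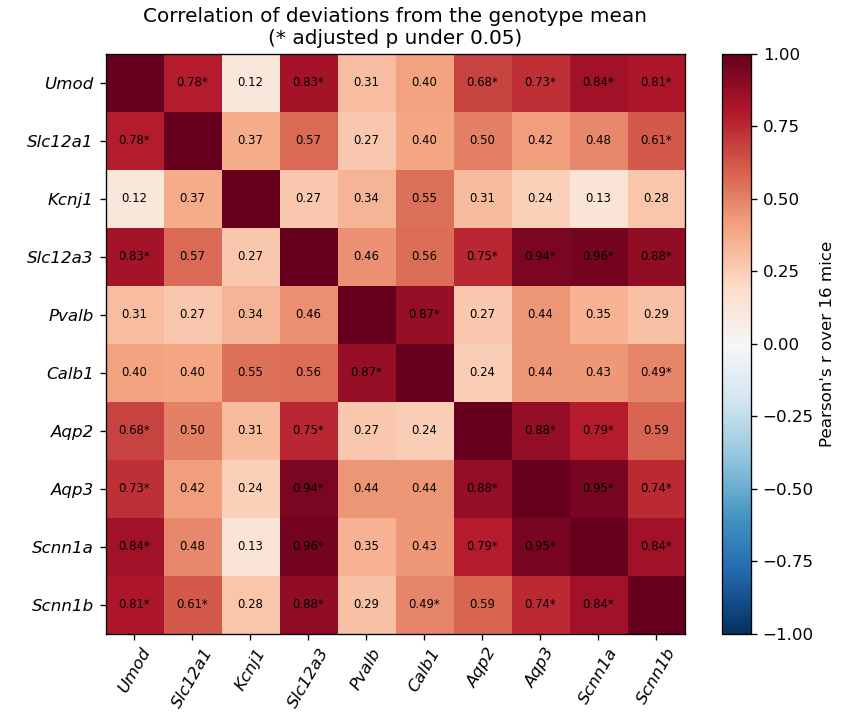
Pearson's r of each pair of genes over 16 mice, from deviations from the genotype mean (color from -1 to 1, values printed, stars where the adjusted permutation p was under 0.05). The highest r is 0.96 for Slc12a3 and Scnn1a, and the lowest is 0.12 for Umod and Kcnj1.

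The named genes whose deviations were most like those of Umod were Riox1, Epb41l4b, Dap, Ube2cbp and Hpcal1, with r from 0.946 to 0.954 over 16 mice, where 0.464% of 16383 probes had an r over 0.9 with Umod. Those most like Aqp2 were Wnt7b, Cryab, Aldoc, Fbxo2 and Gprc5a, with r from 0.911 to 0.939, where 0.067% of probes had an r over 0.9 with Aqp2.

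Other genes of the same segments and their regulators were counted in the same fit. None of 11 tested thick limb genes, 10 distal convoluted and connecting tubule genes, 10 principal cell genes and 11 regulators of salt and water transport passed the test in any comparison. For the pooled Fcgr2b comparison, 9 of 11, 8 of 10, 8 of 10 and 9 of 11 had a value below 0, with median log2 changes of -0.13, -0.15, -0.22 and -0.12, against -0.01 over all probes, of which 52.0% had a value below 0. The pooled value sets both Fcgr2b-deficient genotypes against wild-type and Sting gt/gt mice together. For the principal cell list the medians against wild-type alone were -0.11 in Fcgr2b-/-, -0.07 in double-deficient and 0.36 in Sting gt/gt mice, with 8 of 10 genes above 0 in the last. In the thick limb list the values farthest from 0 were 0.30 for Cldn16, -0.28 for Tmem207 and -0.26 for Bsnd, the barttin subunit of chloride channels. In the distal convoluted and connecting tubule list they were -0.39 for S100g, the calcium-binding protein calbindin-D9k, -0.33 for the magnesium channel Trpm6 and -0.31 for the sodium-calcium exchanger Slc8a1. In the principal cell list they were -0.57 for Elf5, -0.43 for the water channel Aqp4 and -0.35 for the mineralocorticoid receptor Nr3c2, and among regulators -0.31 for the kinase Stk39, -0.22 for Cul3 and -0.21 for the kinase Wnk4. For Fcgr2b-/- against wild-type, Elf5 had -0.12 and Cldn16 -0.05. For double-deficient against Fcgr2b-/- mice the values farthest from 0 were 0.45 for Cldn10 and 0.43 for Kcnj16, 0.45 for Trpm6 and 0.41 for S100g, -0.49 for Gata3 and 0.39 for Aqp4, and 0.56 for the protease Prss8 and 0.44 for Cul3. Every adjusted p of these genes was 1.0.

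The tubular injury, leukocyte, stroma and proximal tubule lists lay outside the wild-type range in Fcgr2b-/- replicates 1 and 4. In Fcgr2b-/- replicate 3, whose Pvalb and Calb1 also lay below every wild-type mouse, all of these lists lay within that range. The mean of 6 tubular injury genes, in log2 relative to wild-type, stood at 3.31 in Fcgr2b-/- replicate 1 and 2.93 in replicate 4, the mice with the lowest Pvalb and Calb1, but 0.60 in replicate 2 and -0.15 in replicate 3. It ran from -0.39 to 0.35 in wild-type, from -0.08 to 0.32 in double-deficient and from -0.30 to 0.42 in Sting gt/gt mice, so double-deficient replicate 4, with a Pvalb of 1.95, stood at -0.07. The leukocyte list (7 of 8 genes tested) stood at 2.90, 0.68, 0.74 and 2.44 in Fcgr2b-/- replicates 1 to 4, against -0.50 to 0.99 in wild-type mice. The stroma and smooth muscle list stood at 2.86, -0.39, 0.15 and 1.79 against -0.70 to 0.65, and the proximal tubule list at -1.96, -0.28, 0.53 and -1.18 against -0.71 to 0.79. All 6 injury genes and 6 of 7 leukocyte genes had a value above 0 for Fcgr2b-/- against wild-type, and all 10 proximal tubule genes had one below 0, none of them past the test. Of all probes, 55.1% had a value below 0 in this comparison. At an unadjusted limma p under 0.05 the counts were 3 of 6, 5 of 7 and 0 of 10, beside 3.3% of all probes. In Sting gt/gt mice, too, all 10 proximal tubule genes lay below the wild-type mean, at a median of -0.32. Of all probes, 48.7% did so. The proximal tubule list lay above 0 in the 6 arrays with Y-linked genes above background and below 0 in the 10 without. The 6 were wild-type replicates 1 and 2, Fcgr2b-/- replicate 3, double-deficient replicates 2 and 4 and Sting gt/gt replicate 3. The genotypes thus differed in this signal, and its part in the proximal tubule values was not tested. In whole kidney RNA, fewer cells of a type and less RNA per cell cannot be told apart, and the part of the other cell types in the Pvalb and Calb1 values was not tested.

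**Figure D4:**
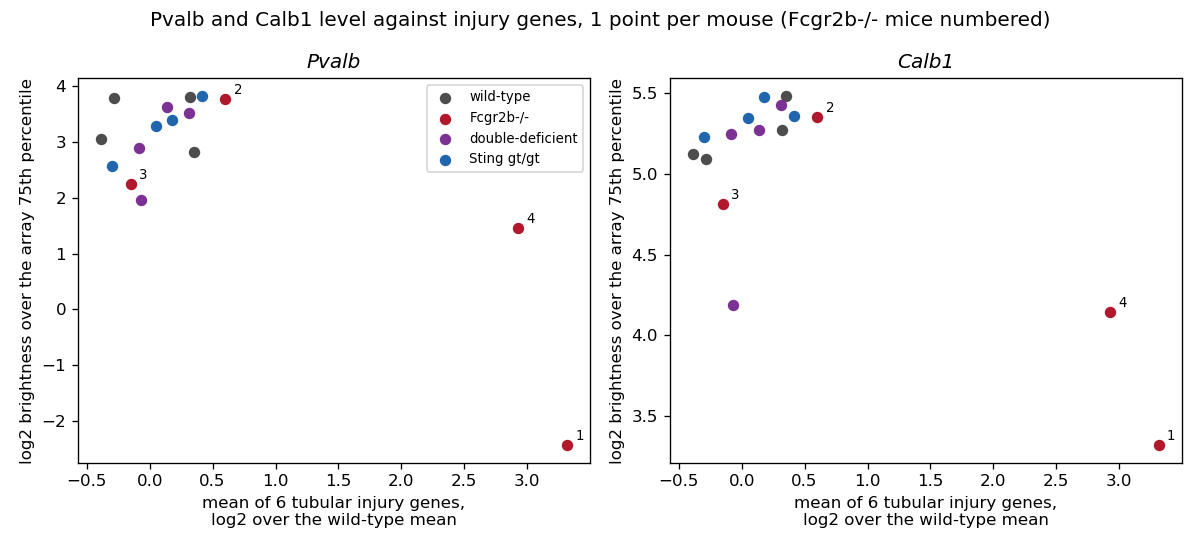
Level of Pvalb (left) and Calb1 (right), as log2 brightness over the array 75th percentile (y axis), against the mean of 6 tubular injury genes in log2 over the wild-type mean (x axis), 1 point per mouse and Fcgr2b-/- mice numbered by replicate. Fcgr2b-/- replicates 1 and 4 lie at 3.31 and 2.93 on the x axis, and the other 14 mice lie at or below 0.60.

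The mice with low Slc12a3 and Scnn1a were marked by other lists. The intercalated cell list stood at -1.22 in wild-type replicate 1, -1.30 in Fcgr2b-/- replicate 1, -1.11 in double-deficient replicate 2 and -0.71 in Sting gt/gt replicate 1, the lowest mouse of each genotype. These mice were also lowest for the other thick limb genes (-0.65, -0.90, -0.60 and -0.33 in that order). The same held for thin limb and inner medulla (-0.81, -0.57, -0.67 and -0.08) and for regulators of salt and water transport (-0.49, -0.69, -0.46 and -0.25). The lists of other distal convoluted and connecting tubule genes and other principal cell genes were not lowest in all 4. The endothelium, leukocyte and stroma lists were each highest of their genotype in the same 4 mice. In those mice endothelium stood at 0.62 to 1.56, leukocyte at 0.99 to 2.90, and stroma and smooth muscle at 0.65 to 2.86. The fat list stood at 3.21, 2.96 and 1.89 in wild-type, Fcgr2b-/- and Sting gt/gt replicate 1, but at -2.32 in double-deficient replicate 2. The part of these cells in the Slc12a3 and Scnn1a values was not tested. The brightest genes of the cell lists gave these log2 changes for Fcgr2b-/- against wild-type, none past the test. They were -0.39 for Rhcg (intercalated cell), -0.20 for Aqp1 (thin limb and inner medulla), -0.22 for Kap (proximal tubule) and 0.09 for Emcn (endothelium). They were 0.93 for Dcn (stroma), -0.30 for Itgam (leukocyte), 0.08 for Upk3a (urothelium), 0.06 for Fabp4 (fat), 0.82 for Spp1 (tubular injury) and -0.25 for Hba-a1 (red cell). Itgam and Fabp4 went against their lists, since the other 6 leukocyte genes had values from 0.37 to 3.22 (list median 2.14) and the other 4 fat genes from -0.81 to -0.37.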

How the data were processed

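Kidney RNA of 16 mice (100 ng each) was hybridised to one-color Agilent arrays, and the authors deposited scanner files with intensity values made by Agilent Feature Extraction 11.0 (per the labels) and a table of log2 values. The array design is annotated on mm9. Here, log2 processed intensity minus the array 75th percentile (387.6 to 951.1 over 16 arrays) of non-control spots was used, spots of a probe were averaged without outlier spots, and probes well above background on at least 4 arrays were kept. Probe names came from RefSeq (GRCm38.p6), which named 58.3% of 56605 probes. limma 3.58.1 (R 4.3.3) fitted 1 mean per genotype with Benjamini-Hochberg adjustment over all 35629 probes, and the brightest probe stood for a gene. The fit was tested on simulated data. The number of arrays limits the precision. The study's methods state a Mann-Whitney test, which was run as an alternative. Correlations used 100000 permutations within genotypes (Python 3.11.15). All members were named in every comparison, with, from each pathway list, called genes or else the 3 and 2 values farthest from 0 in the pooled Fcgr2b and the double-deficient against Fcgr2b-/- comparisons, the brightest gene of each cell list (1 is not reported here), and the 5 genes most like Umod and Aqp2. The members and lists were chosen with earlier results of these data known. Each array is 1 mouse by the labels. Alternatives were other background correction, scaling, filters, batch terms and left-out mice, of which the array weights, the Y-linked covariate, the replicate block in the authors' table, the second probes without Fcgr2b-/- replicate 1 and the omission of the least correlated arrays were chosen after seeing the data.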

Additional observations from a re-analysis of the deposited data

Results flagged for a closer look

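In 40 groups of 4 mice (10 genes in 4 genotypes), 3 mice lay so far from the others of their group that the gap to the nearest mouse was larger than Dixon's limit for the group's range, and chance gives about 1 in 20. Slc12a3 in Fcgr2b-/- replicate 1 was -1.14, with the nearest mouse at 2.15. Calb1 in double-deficient replicate 4 was 4.19, with the nearest at 5.25. Scnn1a in double-deficient replicate 2 was 0.73, with the nearest at 2.94.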

How the results depend on the processing

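No member was called in any of the 6 comparisons under any alternative but 1, since array weights called 2 members (Pvalb and Calb1) for Fcgr2b-/- against wild-type. Mice of the same replicate number were not alike throughout. Of 24 same-number pairs, 11 correlated above 0.1 (r from -0.60 to 0.69), and 5 of 16 arrays correlated best with their own number. Wild-type, Fcgr2b-/- and Sting gt/gt replicates 1 did correlate with each other (r of 0.69, 0.43 and 0.44). Double-deficient replicate 1 had r of -0.60, -0.33 and 0.12 with wild-type, Fcgr2b-/- and Sting gt/gt replicate 1. Whether mice of a number shared a batch was not tested. With the replicate block 15 probes in place of 16 were called for Fcgr2b-/- against wild-type and 22 in place of 24 for the pooled Fcgr2b comparison. The count of correlated member pairs rose from 18 to 29 with scaling to the array median. That scaling moved every log2 change by the same amount within a comparison, -0.17 for Fcgr2b-/- against wild-type, -0.26 for Sting gt/gt against wild-type, -0.12 for double-deficient against wild-type and 0.31 for the interaction. Slide 1 held 1 double-deficient and slide 2 held 1 Fcgr2b-/- mouse, and a lone mouse is assumed to vary like the other groups. In the authors' table all arrays of a replicate number had the same median (4.93 to 5.54 over the numbers), as values scaled in sets by that number would, and with the replicate block, chosen after seeing the data, 16 and not 7 probes were called in it for Fcgr2b-/- against wild-type. The adjusted Mann-Whitney test could call no probe for Fcgr2b-/- against wild-type, where 425 probes reached its smallest p of 0.029 (4 against 4), or for the pooled comparison, where 24 reached 0.000155 (8 against 8). The causes of the other differences were not tested.

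For Fcgr2b-/- against wild-type, the count of 16 called probes became 7 with the authors' table, 0 with probes above background on all 16 arrays, 65 with arrays of slide 1 alone, 0 with arrays of slide 2 alone, 0 with only the groups compared, 1 with Fcgr2b-/- replicate 1 and Sting gt/gt replicate 4 left out, 8 with Y-linked signal as a covariate, 2084 with array weights, 144 with the unadjusted exact Mann-Whitney test and 0 with the adjusted exact Mann-Whitney test, and ranged from 0 to 39 with 1 mouse left out. For double-deficient against Fcgr2b-/-, the count of 0 called probes became 507 with array weights and 38 with the unadjusted exact Mann-Whitney test. For double-deficient against wild-type, the count of 0 called probes became 1 with normexp background correction, 1 with probes above background on all 16 arrays, 1 with arrays of slide 1 alone, 2 with arrays of slide 2 alone, 3 with only the groups compared, 38 with array weights and 58 with the unadjusted exact Mann-Whitney test, and ranged from 0 to 1 with 1 mouse left out. For Sting gt/gt against wild-type, the count of 0 called probes became 43 with arrays of slide 1 alone and 117 with the unadjusted exact Mann-Whitney test. For Fcgr2b-deficient against Fcgr2b-sufficient mice, the count of 24 called probes became 13 with normexp background correction, 6 with probes above background on all 16 arrays, 0 with arrays of slide 1 alone, 4 with arrays of slide 2 alone, 163 with array weights, 207 with the unadjusted exact Mann-Whitney test and 0 with the adjusted exact Mann-Whitney test.

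Of 1994 values of the 60 member changes under the alternatives, 244 had the other sign. Median scaling, a fixed shift, gave 17 of them, fits with 1 mouse in a genotype 26, and the replicate block in the authors' table repeated 8. Of the other 1794 values 193 had the other sign, and 19 of 60 changes kept their sign in all of these. With scaling to the array median, the sign turned for Fcgr2b-/- against wild-type (Umod -0.038, Aqp2 -0.12, Scnn1b -0.15), for double-deficient against Fcgr2b-/- (Aqp3 0.0045), for double-deficient against wild-type (Slc12a1 -0.11, Slc12a3 -0.024, Scnn1a -0.10, Scnn1b -0.010), for Sting gt/gt against wild-type (Slc12a1 -0.037, Kcnj1 -0.18, Calb1 -0.15, Aqp2 -0.000050, Aqp3 -0.25) and for the interaction (Umod 0.18, Slc12a1 0.15, Aqp3 0.25, Scnn1a 0.25). With arrays of slide 2 alone, the sign turned for Fcgr2b-/- against wild-type (Umod -0.41, Aqp2 -1.33, Scnn1b -0.25), for double-deficient against Fcgr2b-/- (Slc12a3 -0.75, Aqp2 0.27, Scnn1a -0.74, Scnn1b -0.25), for double-deficient against wild-type (Slc12a1 -0.41, Slc12a3 -1.26, Scnn1a -1.14, Scnn1b -0.50), for Sting gt/gt against wild-type (Slc12a1 -0.25, Kcnj1 -0.093, Calb1 -0.092, Aqp2 -0.17, Aqp3 -0.33, Scnn1a -0.37), for the interaction (Umod 0.28, Slc12a1 0.46, Aqp2 0.44) and for Fcgr2b-deficient against Fcgr2b-sufficient mice (Umod -0.27). With Y-linked signal as a covariate, the sign turned for Fcgr2b-/- against wild-type (Umod -0.048, Aqp2 -0.16, Scnn1b -0.11), for double-deficient against Fcgr2b-/- (Aqp3 0.078), for double-deficient against wild-type (Slc12a1 -0.0014, Scnn1a -0.0048), for Sting gt/gt against wild-type (Kcnj1 -0.013, Aqp3 -0.13) and for the interaction (Umod 0.22, Slc12a1 0.14, Aqp3 0.21, Scnn1a 0.40). With array weights, the sign turned for Fcgr2b-/- against wild-type (Umod -0.0093, Scnn1b -0.34), for double-deficient against wild-type (Slc12a3 -0.12, Scnn1a -0.27, Scnn1b -0.11), for Sting gt/gt against wild-type (Kcnj1 -0.083, Aqp2 -0.37, Aqp3 -0.49, Scnn1a -0.55), for the interaction (Umod 0.25, Aqp3 0.24, Scnn1a 0.96) and for Fcgr2b-deficient against Fcgr2b-sufficient mice (Slc12a3 0.062, Aqp3 0.064). With quantile normalization, the sign turned for Fcgr2b-/- against wild-type (Slc12a1 0.11, Aqp3 0.068, Scnn1b -0.14), for double-deficient against wild-type (Umod 0.036, Aqp3 0.016), for Sting gt/gt against wild-type (Umod 0.071, Pvalb 0.079) and for the interaction (Kcnj1 -0.18). With the authors' table, with or without the replicate block, the sign turned for Fcgr2b-/- against wild-type (Slc12a1 0.12, Aqp3 0.069, Scnn1b -0.14), for double-deficient against Fcgr2b-/- (Slc12a1 -0.00084), for double-deficient against wild-type (Umod 0.016), for Sting gt/gt against wild-type (Umod 0.044, Pvalb 0.078) and for the interaction (Kcnj1 -0.20). With arrays of slide 1 alone, the sign turned for Fcgr2b-/- against wild-type (Slc12a1 0.32, Slc12a3 0.34, Aqp3 0.40, Scnn1a 0.51), for double-deficient against Fcgr2b-/- (Umod 0.42, Aqp3 0.16), for double-deficient against wild-type (Umod 0.97, Kcnj1 0.045, Pvalb 0.10, Calb1 0.32, Aqp2 0.53, Aqp3 0.56), for Sting gt/gt against wild-type (Umod 0.33, Slc12a3 0.95, Pvalb 0.19, Scnn1b 0.24), for the interaction (Umod 0.085, Scnn1a 0.18) and for Fcgr2b-deficient against Fcgr2b-sufficient mice (Slc12a1 0.19, Slc12a3 0.74, Aqp2 0.41, Aqp3 0.30, Scnn1a 0.60). With Fcgr2b-/- replicate 1 and Sting gt/gt replicate 4 left out, the sign turned for Fcgr2b-/- against wild-type (Slc12a1 0.025, Slc12a3 0.48, Aqp3 0.42, Scnn1a 0.45), for double-deficient against Fcgr2b-/- (Slc12a1 -0.011, Slc12a3 -0.38, Scnn1a -0.43, Scnn1b -0.12), for Sting gt/gt against wild-type (Kcnj1 -0.079, Aqp2 -0.027, Aqp3 -0.22), for the interaction (Slc12a3 -0.018) and for Fcgr2b-deficient against Fcgr2b-sufficient mice (Slc12a3 0.47, Aqp2 0.046, Aqp3 0.29, Scnn1a 0.21). With the slide as a block, the sign turned for Fcgr2b-/- against wild-type (Aqp3 0.079), for double-deficient against Fcgr2b-/- (Scnn1a -0.16, Scnn1b -0.016) and for double-deficient against wild-type (Slc12a3 -0.040, Scnn1a -0.17). With normexp background correction, the sign turned for Fcgr2b-/- against wild-type (Scnn1b -0.020). With the median of a gene's probes, the sign turned for Sting gt/gt against wild-type (Scnn1a -0.13) and for the interaction (Scnn1a 0.34).

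With 1 mouse left out in turn, the log2 change crossed 0 for Fcgr2b-/- against wild-type in Umod from -0.11 to 0.34, Slc12a1 from -0.19 to 0.050, Slc12a3 from -1.20 to 0.48, Aqp2 from -0.33 to 0.38, Aqp3 from -0.44 to 0.42, Scnn1a from -0.89 to 0.45 and Scnn1b from -0.28 to 0.23. With 1 mouse left out in turn, the log2 change crossed 0 for double-deficient against Fcgr2b-/- in Umod from -0.52 to 0.084, Slc12a1 from -0.085 to 0.22, Slc12a3 from -0.38 to 1.05, Aqp3 from -0.49 to 0.20, Scnn1a from -0.43 to 0.81 and Scnn1b from -0.12 to 0.25. With 1 mouse left out in turn, the log2 change crossed 0 for double-deficient against wild-type in Umod from -0.39 to 0.21, Slc12a1 from -0.14 to 0.17, Slc12a3 from -0.71 to 0.66, Calb1 from -0.34 to 0.072, Aqp3 from -0.48 to 0.18, Scnn1a from -0.68 to 0.62 and Scnn1b from -0.19 to 0.29. With 1 mouse left out in turn, the log2 change crossed 0 for Sting gt/gt against wild-type in Umod from -0.39 to 0.036, Kcnj1 from -0.079 to 0.23, Slc12a3 from -0.96 to 0.27, Pvalb from -0.28 to 0.13, Aqp2 from -0.12 to 0.52, Aqp3 from -0.40 to 0.19 and Scnn1a from -0.42 to 0.66. With 1 mouse left out in turn, the log2 change crossed 0 for the interaction in Umod from -0.38 to 0.23, Kcnj1 from -0.0027 to 0.35, Slc12a3 from -0.23 to 1.45, Aqp3 from -0.50 to 0.35 and Scnn1a from -0.70 to 0.64. With 1 mouse left out in turn, the log2 change crossed 0 for Fcgr2b-deficient against Fcgr2b-sufficient mice in Umod from -0.057 to 0.25, Slc12a3 from -0.48 to 0.36, Aqp3 from -0.26 to 0.17 and Scnn1a from -0.57 to 0.098.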
